A study of Mus musculus with 17 samples.

Results

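The 5 Wnt pathway genes described here were followed across 17 single cells of adult mouse back skin. They are the secreted antagonists Sfrp4, Sfrp1 and Dkk2, and the intracellular effectors Ctnnb1 and Tcf7l2. They were chosen by gene symbol, and each of the 5 symbols matched 1 of the 8446 rows of the expression table. All 17 cells came from C57BL/6 mice with the genotype Prrx1-CreERT;Tomato, in which a tamoxifen-dependent Cre driven by Prrx1 switches on the red reporter Tomato. Tamoxifen was injected daily over 3 days at 2 mg for every 30 g of body weight, and red cells were sorted from elastase- and collagenase-digested skin and picked one at a time. The cells form 1 group with no untreated, wild-type or Tomato-negative cells, and the labels tie no cell to an animal. They therefore count as 1 sample, and every result below is a description with no test between conditions.

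Wnt proteins are secreted ligands that bind Frizzled receptors together with the co-receptors LRP5 and LRP6. Without ligand, a cytoplasmic complex of Axin, APC, GSK3 and casein kinase 1 marks beta-catenin, the product of Ctnnb1, for destruction. With ligand, beta-catenin accumulates, enters the nucleus and acts with factors of the TCF and LEF family, to which Tcf7l2 belongs. Secreted Frizzled-related proteins such as Sfrp1 and Sfrp4 bind Wnt ligands outside the cell, whereas Dkk2 acts on the LRP co-receptors. In skin the pathway is known for its part in dermal fibroblast specification and hair follicle growth. Because beta-catenin is controlled largely through protein stability, a transcript level does not report pathway activity.

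Start-site sequence was available for 3 of the 5 genes (RefSeq, build GRCm38.p6) and is shown for reference. These 3 genes were detected in 3 to 14 cells, and a link of their sequence to detection was not tested. Each window runs from 250 bases before to 50 bases after the start on the plus strand, at chr3:132085042-132085341 for Dkk2, chr9:120933150-120933449 for Ctnnb1 and chr19:55741560-55741859 for Tcf7l2. Capitals mark TATAAA on either strand, the core of the TATA box. No window is shown for Sfrp4 and Sfrp1.
Dkk2: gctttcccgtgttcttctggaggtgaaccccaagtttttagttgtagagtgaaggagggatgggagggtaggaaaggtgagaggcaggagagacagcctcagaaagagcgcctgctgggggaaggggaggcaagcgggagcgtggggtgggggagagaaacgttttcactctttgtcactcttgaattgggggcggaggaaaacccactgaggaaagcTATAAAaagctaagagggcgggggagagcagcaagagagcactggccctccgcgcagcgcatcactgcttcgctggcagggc
Ctnnb1: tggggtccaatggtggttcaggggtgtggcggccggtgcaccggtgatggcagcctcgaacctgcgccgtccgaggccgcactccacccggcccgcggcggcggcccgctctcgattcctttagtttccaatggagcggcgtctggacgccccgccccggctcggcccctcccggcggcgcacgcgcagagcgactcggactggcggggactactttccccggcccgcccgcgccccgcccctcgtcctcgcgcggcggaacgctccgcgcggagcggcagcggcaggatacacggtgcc
Tcf7l2: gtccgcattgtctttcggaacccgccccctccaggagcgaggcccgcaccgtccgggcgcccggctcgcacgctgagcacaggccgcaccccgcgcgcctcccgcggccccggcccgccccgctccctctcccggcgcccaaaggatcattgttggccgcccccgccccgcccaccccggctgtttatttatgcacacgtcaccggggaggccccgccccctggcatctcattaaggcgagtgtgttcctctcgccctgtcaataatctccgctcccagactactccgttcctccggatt

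The Dkk2 window held TATAAA, beginning 32 bases before the start, and 11 CpG dinucleotides, with 57.7% G and C. The windows shown for Ctnnb1 and Tcf7l2 had no TATAAA and held 46 and 34 CpG dinucleotides. A second, overlapping Ctnnb1 window and a second Tcf7l2 window, both from downstream starts, each held TATAAA. Over all 32851 windows of this length 13.6% held TATAAA and the median was 7 CpG. The TCF and LEF core motifs CTTTGAT and CTTTGAA, searched on both strands, were in none of the windows of these 3 genes and in 8.65% of all windows. Taking the first listed window of each gene, the median was 21 CpG for 855 genes found in all 17 cells and 20 for 1226 genes found in 3 or fewer, and TATAAA was in 9.71% and 7.26% of their windows.

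Values are the deposited ones, read as log2 of FPKM (fragments scaled to transcript length and to library size) plus 1. All cells share nearly the same sorted values, so a value mainly states the rank of a gene within its cell. FPKM 1, a value of 1, is reached by 51.7% of rows in each cell and is called detection here. FPKM 10, a value of 3.46, is reached by 35.2%. Read depth is unknown, and the remaining measure of library complexity is the number of rows at the lowest value, 871 to 1766 per cell. The cells carried fibroblast transcripts: the 14 markers of the fibroblast list were found almost complete, with 13 or 14 detected per cell. The lists were chosen with earlier results of these data known. All 14 fibroblast markers were measured, against 2 of 8 keratinocyte and 1 of 6 leukocyte markers. Prrx1 was at a mean of 5.41 (SD 1.31) and detected in all 17 cells. Markers of other lineages were not absent. Of 3 measured endothelial markers the median cell had 1 and no cell more than 2. Of 2 measured keratinocyte markers, cells 1, 2, 6, 10, 13 and 14 had 1 and the other cells 0. The 1 measured leukocyte marker, Csf1r, was detected in cells 1, 3, 5, 12 and 17, at FPKM 10 in all of these but cell 5. Of 3 measured adipocyte markers cells held 0 to 3, with a median of 2. Cells held 0 to 5 of 6 pericyte or smooth muscle markers and 0 to 3 of 3 melanocyte or Schwann cell markers. They held 1 to 4 of 4 papillary fibroblast markers and 4 to 6 of 6 fascia markers. Cells 1 to 5, 6 to 14 and 15 to 17 form 3 sets whose low values resemble each other, so values within sets are given where they matter. The pericyte or smooth muscle markers followed these sets, with 4 or 5 detected in cells 1 to 5 and 0 to 2 in every other cell. No cell had more than 1 of them at FPKM 10. The labels name no batch.

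Sfrp4 was the one gene of the 5 found in every cell (exact 95% interval 80.5% to 100%, counting error over cells only). It lies on chromosome 13 from 19623104 to 19632994 in GRCm38. Its values ran from 1.06 in cell 7 through a median of 5.66 to 9.29 in cell 1, with a mean of 5.18 (SD 2.96, n = 17 cells). Its mean exceeded that of 86.1% of all rows. For comparison, 1100 of the 8446 rows were detected in all cells.

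The cells did not carry Sfrp4 evenly. In 11 cells it was at 4.13 or more, and in cells 4, 7, 11, 12, 13 and 15 at 2.42 or less, with no value between. The same 11 cells reached FPKM 10 (exact interval 38.3% to 85.8%). The SD of Sfrp4 exceeded that of 88.0% of the 216 rows with a mean within 0.25 of its own, whereas its gap of 1.71 was close to the median largest gap of those rows, 1.79. High and low cells stood within each of the 3 sets, with set medians of 6.89, 4.13 and 5.66.

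Sfrp1, a paralog of Sfrp4 that also binds Wnt ligands, was detected in 11 cells (exact interval 38.3% to 85.8%). It lies on chromosome 8 from 23411502 to 23449632. Values ran from 0.28 in cell 8 through a median of 1.60 to 7.45 in cell 7, with a mean of 2.89 (SD 2.73). At FPKM 10 it was found in 6 cells, namely 6.14 in cell 4, 6.74 in cell 5, 7.45 in cell 7, 4.17 in cell 12, 6.20 in cell 16 and 7.03 in cell 17. In the other 11 cells it was at most 2.29. The 5 cells in which it was detected below FPKM 10 lay between 1.53 and 2.29, where the median row of a cell is at 1.18. The 595 rows with a mean within 0.25 of that of Sfrp1 were detected in a median of 11 cells.

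Dkk2 was the most restricted of the 5. It lies on chromosome 3 from 132085292 to 132180304. It was detected in 3 cells (exact interval 3.80% to 43.4%), at 6.06 in cell 16, 5.70 in cell 17 and 1.41 in cell 4. The median was 0.03 and the mean 0.85 (SD 1.92), and 7 cells were at the lowest value. Between 1.41 and 5.70 there was no value, a gap of 4.28 against a median largest gap of 2.43 over 1548 rows of similar mean. Both high cells belong to the set of cells 15 to 17, and Dkk2 was at most 0.03 in all 9 cells of the set 6 to 14. Cell 17 had the most rows at the lowest value, 1766, and cell 16 had 1467. The Spearman correlation of Dkk2 with that number was 0.62 over the 17 cells. Cells 16 and 17 also had all 3 measured adipocyte markers (Fabp4, Cfd and Car3), whose summed value was 22.1 and 13.6 against 0.77 to 13.1 in the other cells. The median cell had 2 of these markers. Cell 17 held Cfd at only 1.37, and its sum was close to the 13.1 of cell 11. The part of these features in the Dkk2 result was not tested.

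**Figure D1:**
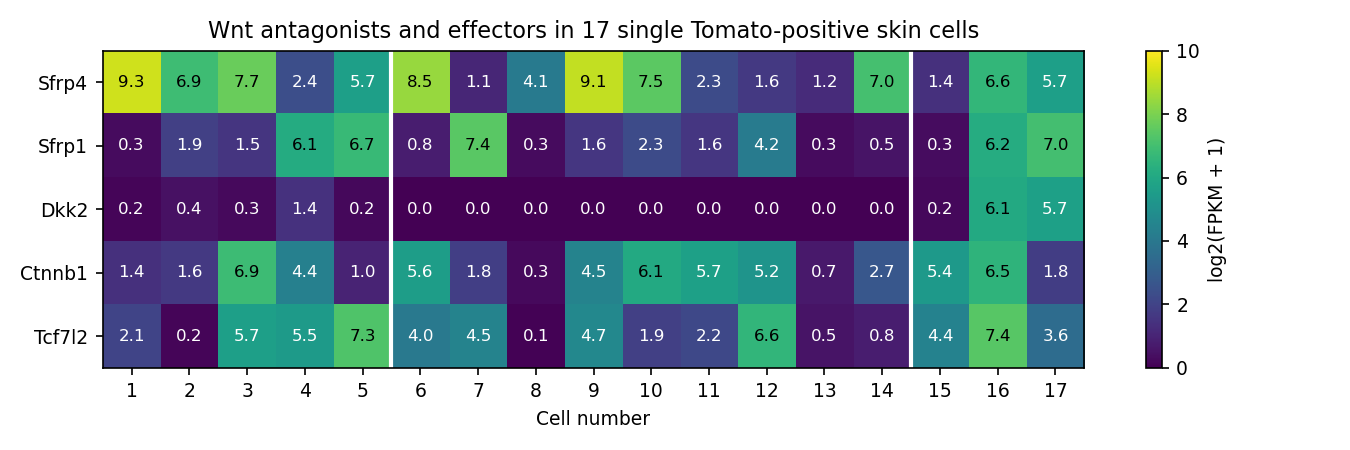
Deposited values, log2(FPKM + 1), of the 5 genes (rows) in each of the 17 cells (columns, by cell number), with white lines between the sets 1 to 5, 6 to 14 and 15 to 17. Sfrp4 is at 1.06 or more in every cell, Dkk2 is high in cells 16 and 17 alone, and in cells 8 and 13 every gene but Sfrp4 lies below 1.

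Ctnnb1, which encodes beta-catenin, was detected in 14 cells (exact interval 56.6% to 96.2%). It lies on chromosome 9 from 120929216 to 120960507. Values ran from 0.27 in cell 8 through a median of 4.36 to 6.87 in cell 3, with a mean of 3.62 (SD 2.27). At FPKM 10 it was found in 9 cells. The cells below FPKM 1 were 5, 8 and 13, of which cell 5 missed it narrowly at 0.99. Its SD exceeded that of 34.8% of the 419 rows of similar mean, so its spread was of the usual size for its level. Those rows were detected in a median of 13 cells.

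Tcf7l2, one of the DNA-binding partners of beta-catenin, was detected in 13 cells (exact interval 50.1% to 93.2%). It lies on chromosome 19 from 55741820 to 55933654. Values ran from 0.05 in cell 8 through a median of 4.05 to 7.41 in cell 16, with a mean of 3.60 (SD 2.45). It reached FPKM 10 in 10 cells and was under FPKM 1 in cells 2, 8, 13 and 14. The 417 rows of similar mean were detected in a median of 13 cells.

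By mean level the order was Sfrp4, Ctnnb1, Tcf7l2, Sfrp1 and Dkk2, on the FPKM scale, which divides by transcript length. Neighbours in this order differed by less than the SD of their difference over cells. Sfrp1 was nonetheless above Dkk2 in all 17 cells, by a mean of 2.03 (SD 2.29). Sfrp4 was above Ctnnb1 in 12 cells and Ctnnb1 above Tcf7l2 in 9. The 3′ end kit reads mainly the end of a transcript, so division by length may not suit it. With values multiplied by exonic length, Tcf7l2, which has the longest exonic sequence at 8775 bases, passed Ctnnb1 (4.73 against 4.16).

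Cells differed in how many of the 5 genes they carried. The median was 4 detected genes per cell and 2 at FPKM 10, beside 51.7% and 35.2% of all rows at these levels in every cell. Cells 4, 16 and 17 had all 5 genes, and cells 8 and 13 had Sfrp4 alone. At FPKM 10 cell 16 had all 5, cell 17 had 4 and cell 13 none. Cells 4, 16 and 17 had 1492, 1467 and 1766 rows at the lowest value, and cells 8 and 13 had 1259 and 1117.

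Sfrp1 and Tcf7l2 stood high in the same cells. All 6 cells with Sfrp1 at FPKM 10 also had Tcf7l2 at FPKM 10, which is 100% of the Sfrp1 cells and 60.0% of the Tcf7l2 cells. Of 257 other rows at FPKM 10 in 10 cells, 2.72% also held all 6, with a median of 4 shared cells. The Spearman correlation over cells was 0.58, and the middle range was -0.18 to 0.18 for Sfrp1 with 3872 genes. Tcf7l2 held place 45 of these genes by nearness to Sfrp1. The correlation was 0.82 in cells 6 to 14 alone and 0.63 with set means subtracted. Both genes also correlated with the number of rows at the lowest value (0.41 for Sfrp1 and 0.58 for Tcf7l2), whose part in the result was not tested. The cells share 1 sample, so these correlations are descriptions.

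Ctnnb1 and Tcf7l2, which act as protein partners, were both at FPKM 10 in 7 cells, that is 77.8% of the Ctnnb1 cells and 70.0% of the Tcf7l2 cells. Of 257 other rows at FPKM 10 in 10 cells, 8.95% shared 7 or more cells with Ctnnb1, with a median of 5. Their correlation was 0.47, and 0.42 both in cells 6 to 14 and with set means subtracted. Without cell 16 it was 0.37. The remaining pairs were lower. Sfrp4 was weakly and inversely related to Sfrp1 (-0.21) and near 0 with Tcf7l2 (-0.05). It was at 0.22 with Ctnnb1, and Sfrp1 was at 0.18 with Ctnnb1. Dkk2 was near 0 with Sfrp4 (-0.06) and with Ctnnb1 (-0.03). Dkk2 was at 0.40 with Sfrp1 and 0.34 with Tcf7l2, values that rest on few cells above the lowest ranks. Dkk2, too, correlated with the number of rows at the lowest value (0.62), whose part in these values was not tested. Dkk2 with Tcf7l2 was at 0.20 without cell 16 and at 0.11 with set means subtracted. Dkk2 with Sfrp1 was at 0.32 without cell 16, 0.51 with set means subtracted and 0.56 by Pearson. In cells 6 to 14, where Dkk2 was at most 0.03, this pair was at 0.02. Over the 10 pairs the median was 0.20, and it was 0.12 by Pearson, 0.09 with set means subtracted and 0.04 in cells 6 to 14. Other overlaps at FPKM 10 were compared with rows in as many cells as the second gene. As many cells were shared by 92.5% of rows for Sfrp4 with Sfrp1 and 92.3% for Sfrp4 with Ctnnb1. The share was 83.7% for Sfrp4 with Tcf7l2 and 74.3% for Sfrp1 with Ctnnb1. With Dkk2, at FPKM 10 in 2 cells, it was 11.6% (Sfrp1) to 81.6% (Ctnnb1).

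Another family member, Sfrp2, was measured. It was detected in 8 cells and at FPKM 10 in 5, with 7.0 in cell 6, 5.49 in cell 9, 7.68 in cell 10, 4.25 in cell 11 and 5.56 in cell 13. No cell had both Sfrp1 and Sfrp2 at FPKM 10, whereas 5 cells had both at FPKM 1. Of 548 other rows at FPKM 10 in 5 cells, 5.66% also shared no cell with Sfrp1, and this pair was singled out after its values were seen. All 5 Sfrp2 cells lay in the set of cells 6 to 14, where Sfrp1 reached FPKM 10 in cells 7 and 12, and the correlation of both genes was -0.28 over all cells and 0 within that set. A difference between cells and one between sets of libraries cannot be told apart here.

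Counting Sfrp4 as well, 16 of the 17 cells had at least 1 Sfrp gene at FPKM 10. Sfrp4 was the only one in 5 cells, stood with Sfrp1 in 3 and with Sfrp2 in 3, and was under FPKM 10 in the 3 cells with Sfrp1 alone and the 2 with Sfrp2 alone. Cell 15 had none, with 1.39 for Sfrp4, 0.32 for Sfrp1 and 0.48 for Sfrp2. Of 219 other rows at FPKM 10 in 11 cells, 37.0% shared as few cells with Sfrp1 as Sfrp4 did. Of 548 other rows at FPKM 10 in 5 cells, 60.0% shared as few with Sfrp4 as Sfrp2 did. How often other sets of genes reach as many cells together was not computed, so the count of 16 is a description.

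**Figure D2:**
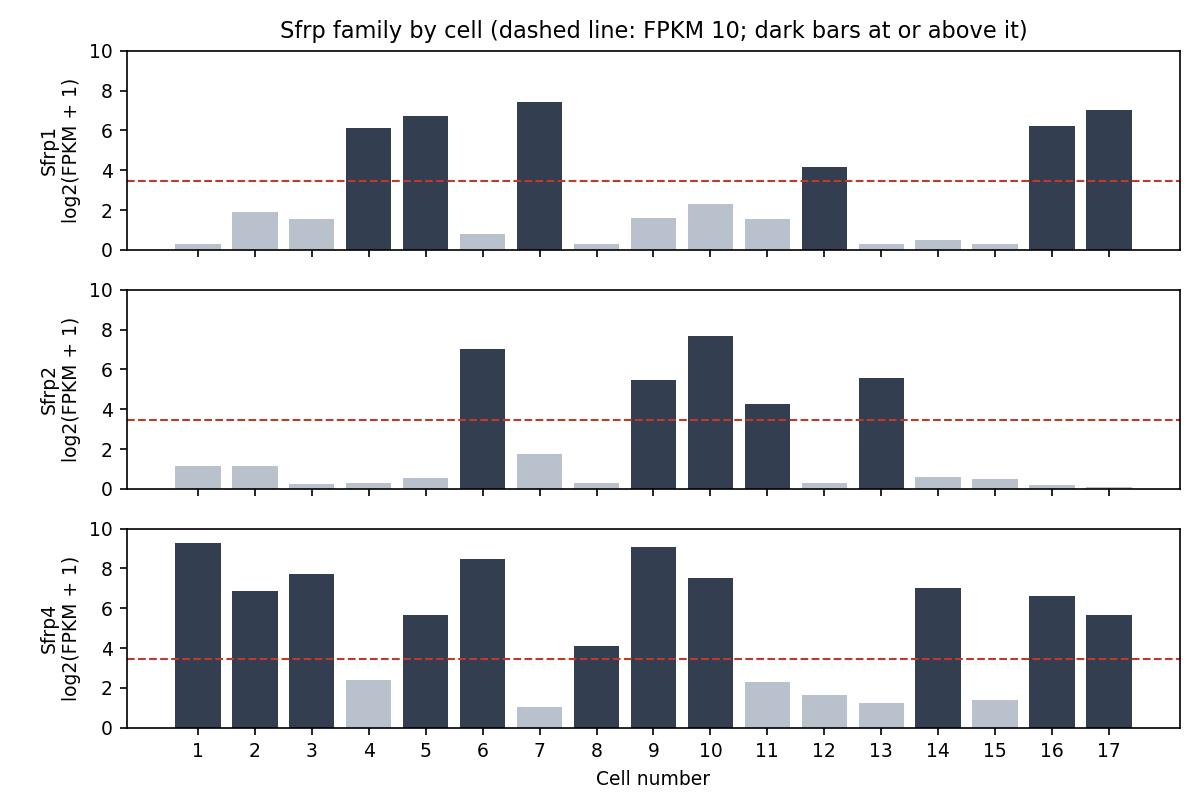
Values of Sfrp1, Sfrp2 and Sfrp4, log2(FPKM + 1), as 1 bar per cell, with the dashed line at FPKM 10 (3.46) and dark bars at or above it. The dark bars of Sfrp1 (6 cells) and Sfrp2 (5 cells) share no cell, as did 5.66% of other rows with 5 such cells, and cell 15 has no dark bar.

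Of 122 Wnt pathway genes on the lists used, 53 were measured, and 26 of these (49.1%) were detected in 9 or more cells, near the 46.9% of all rows. Without the 5 described genes the count was 22 of 48. Among ligands 3 of 19 were measured. Wnt2 was detected in 10 cells (mean 3.06, SD 2.74), Wnt11 in 6 and Wnt5a in 4. Wls, which carries Wnt proteins to the cell surface, was detected in 11 cells (mean 3.13, SD 2.53), and Porcn, which attaches their lipid, in 3. The R-spondins, which strengthen Wnt signals, were represented by Rspo1 in 3 cells and Rspo3 in 2.

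Of 18 antagonists 5 were measured. Beside the Sfrp genes and Dkk2, Igfbp4, an IGF-binding protein that can also block LRP6, was detected in 15 cells (mean 4.50, SD 2.44). Other Dkk genes are not analysed here. Among 6 measured receptor genes Ryk was detected in 10 cells (mean 2.67), Fzd1 in 10 (mean 2.41), Kremen1, a receptor for Dkk proteins, in 9 (mean 1.66) and Fzd4 in 8 (mean 1.58). Dkk2 and Kremen1 were both highest in cell 16, which is not particular to this pair. Fzd2, Ryk, Gsk3b, Tcf7l2, Pygo2, Aes, Jup, Myc, Cd44 and Wisp2 were also highest in that cell. The share of all rows highest in cell 16 was not computed, so nothing particular to Wnt genes can be read from this. The co-receptor gene Lrp6 was detected in 8 cells.

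Of 9 measured cytoplasmic genes 6 were detected in 9 or more cells, led by the casein kinase gene Csnk1a1 in 17 (mean 5.57, SD 1.24), the tankyrase gene Tnks2 in 15 (mean 3.25), and the casein kinase genes Csnk1d in 12 and Csnk1e in 11. Of 17 nuclear genes 7 were, led by the coactivator gene Crebbp (mean 4.36) and the Groucho-related Aes (mean 3.10), each in 15 cells. Ctnnb1 and the corepressor gene Ctbp1 followed with 14 each. Tcf7l1, a paralog of Tcf7l2, was detected in 11 cells (mean 2.44, SD 1.98), and it was higher than 4 in cells 2, 4, 6, 12 and 16. Tcf7 and Lef1 are not analysed here.

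At cell junctions beta-catenin also binds cadherins. There Ctnna1 was detected in 13 cells (mean 3.21), Ctnnd1 in 11 (mean 2.28), Cdh11 in 6 and Jup in 4. Of 16 genes often used as Wnt targets 5 were measured: Cd44 in 17 cells (mean 5.14), Myc in 16 (mean 5.95), Wisp2 in 14 (mean 4.48), Ccnd1 in 6 and Wisp1 in 1. Axin2, a target widely used as a readout, is not analysed here.

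**Figure D3:**
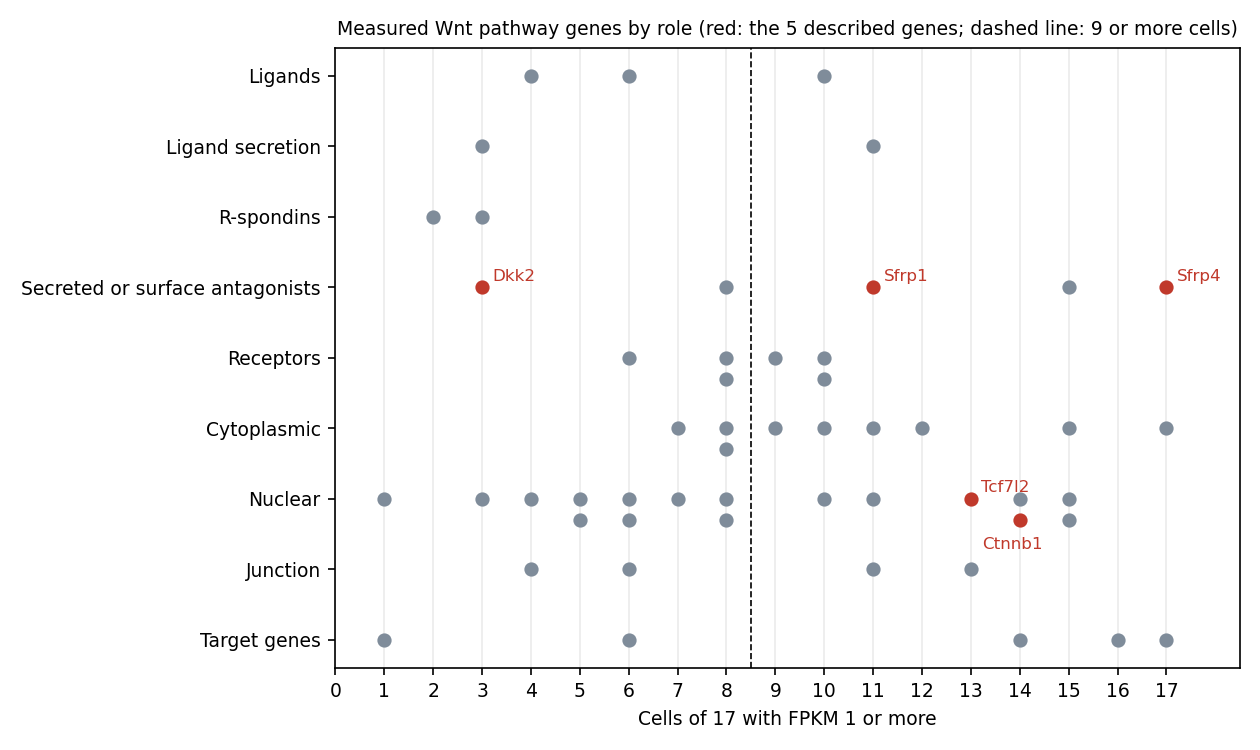
Number of cells, of 17, in which each measured Wnt pathway gene was at FPKM 1 or more (horizontal axis), by role (rows), with 1 point per gene, red points for the 5 described genes and a dashed line before 9 cells. Sfrp4 sits at 17 cells and Dkk2 at 3, and cytoplasmic genes lie between 7 and 17.

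The genes whose order over the 17 cells was most like that of each described gene were taken from the other 3872 genes detected in 9 or more cells. With so many genes, high coefficients are found at both ends for any gene, so the lists name neighbours and nothing more. The gene nearest to Ctnnb1 was Cyp20a1 (Spearman 0.85), followed by Myc (0.79), Gas5 (0.76), Irak3 (0.76) and Naa35 (0.74). Myc, a transcription factor of cell growth, stands on the target list. It ran from 0.76 in cell 8 to 10.47 in cell 16, and cells 8 and 16 were also the lowest and the next to highest for Ctnnb1. The correlation of Ctnnb1 with Myc was 0.83 in cells 6 to 14, 0.76 with set means subtracted and 0.70 by Pearson. The other target genes detected in 9 or more cells did not stand near Ctnnb1. Cd44 was at 0.25 (place 739 of 3872) and Wisp2 at -0.10 (place 2513). Lowest for Ctnnb1 were Idh1 (-0.84), Snrpe (-0.81) and Hist1h2al (-0.72), the last a histone gene with near-identical copies whose reads may be shared.

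Nearest to Sfrp1 were Adh1 (0.83), an alcohol dehydrogenase of retinol metabolism, the heat-shock gene Hspa1a (0.81), Man1a (0.78), the matrix gene Thbs2 (0.77) and Arid5b (0.77). Hspa1a has a near-identical copy, Hspa1b, so its reads may be shared. Furthest were Vamp8 (-0.74), Vldlr (-0.71) and Prdx2 (-0.69). Of the Wnt lists, Igfbp4 lay furthest from Sfrp1 (-0.62, the 16th lowest of 3872 genes), with -0.45 in cells 6 to 14 and -0.65 with set means subtracted. Igfbp4 was at most 4.09 in each of the 6 cells with Sfrp1 at FPKM 10. In the other 11 cells it was at 4.44 or more, except at 0.52 in cell 9. These limits were set after the values were seen, and how many other genes split the cells so was not computed. At FPKM 10 both genes were found together in cells 4 and 16, with Igfbp4 at 3.87 and 4.09.

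**Figure D4:**
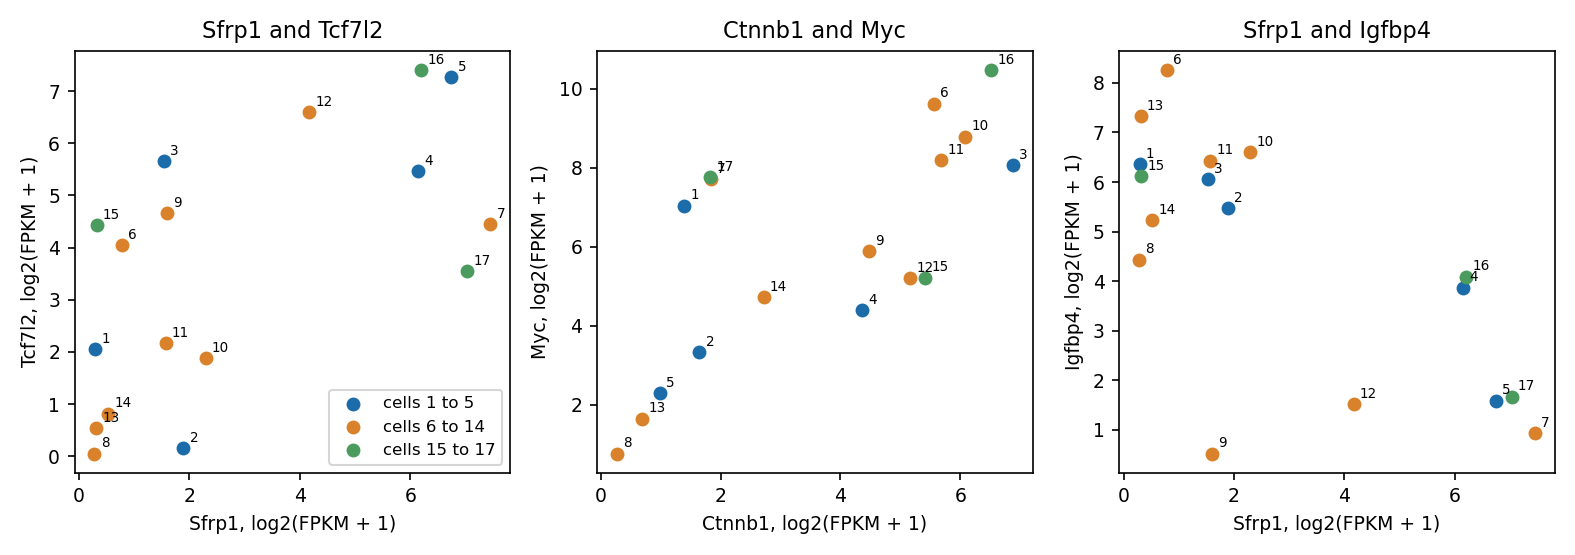
Values, log2(FPKM + 1), of Tcf7l2 against Sfrp1, Myc against Ctnnb1 and Igfbp4 against Sfrp1, with 1 point per cell, labelled by cell number and coloured by set. Spearman correlations over the 17 cells were 0.58, 0.79 and -0.62.

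Nearest to Sfrp4 were Nans (0.85), an enzyme of sialic acid synthesis, then Bnip1 (0.79), Abhd11 (0.78), Dctn5 (0.76) and Srm (0.73), and furthest were Kmt2e (-0.82), Dnaja1 (-0.75) and Syap1 (-0.68). Nearest to Tcf7l2 were Phykpl (0.76), Pqbp1 (0.72), the retinoic acid hydroxylase gene Cyp26b1 (0.71), Gps1 (0.70) and Rnu3b1 (0.70), a small RNA gene whose copies Rnu3b2, Rnu3b3 and Rnu3b4 hold the same values in rows of their own, so that the choice among them is by name alone. Furthest were Calu (-0.73), Tor1b (-0.70) and Bax (-0.69). Of the nearest 5 genes of Tcf7l2, 1 was kept after set means were subtracted and 2 by Pearson. Of the Wnt lists Wls was closest to Tcf7l2 after Sfrp1 (0.54, and 0.43 with set means subtracted). Dkk2 was detected in too few cells for such a list.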

How the data were processed

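RNA of 17 single cells was read with a kit for 3′ ends (SMART-Seq v4 DE) and Nextera XT libraries, per the labels' protocols. TopHat2, Cufflinks and GRCm38 are named in the submitters' processing notes, without versions. The values the authors deposited were read as log2 of FPKM plus 1. Neither base nor constant is stated, and every FPKM level rests on that reading. Values back-transformed with base 2 summed to 592939 to 592955 per cell, and sorted values above 3 differed by at most 0.0165 between cells, the form quantile normalisation gives. Detection is therefore a rank within a cell.

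Coordinates and exonic lengths came from GENCODE M21 on GRCm38, to which 99.8% of rows matched by identifier. Where rows shared a symbol, that of the highest mean was used, except among nearest genes, where every row was ranked. Correlations over cells used genes detected in 9 or more cells, without ribosomal protein genes and unnamed gene models, and the ranking was tested on simulated data. The naming rule took the 5 genes, Prrx1, the 4 measured genes of each role list detected in the most cells, the measured paralogs of the 5 genes, and for each gene detected in 9 or more cells the 5 highest and 3 lowest correlations. Further list members were named after their values were seen. The members and lists were chosen with earlier results of these data known, as were the 3 sets of cells, which an earlier clustering of low values had defined from the data. Alternatives changed the threshold, pseudocount, length scaling, correlation measure, gene filter, set means and the cells used. The software was matplotlib 3.10.9, scipy 1.17.1, pandas 2.3.3, numpy 2.4.6 and Python 3.11.15.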

Additional observations from a re-analysis of the deposited data

How the results depend on the processing

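Detection depended on the threshold. Sfrp4 was found in 11 cells at FPKM 5 and at FPKM 10, Sfrp1 in 17 above the lowest value and in 6 at FPKM 5 and at FPKM 10, Ctnnb1 in 9 at FPKM 10, and Dkk2 in 10 above the lowest value. Without cells 15 to 17 Dkk2 was detected in 1 cell. The mean of Dkk2 was -1.51 with a pseudocount of 0.1, and 4.39 over the cells that reached FPKM 1. The median number of the 5 genes per cell was 2 at FPKM 5 and at FPKM 10. Pathway genes in 9 or more cells numbered 50 above the lowest value, 17 at FPKM 5 and 10 at FPKM 10, where 18.9% of pathway genes and 26.6% of all rows were in 9 or more cells. Of the correlations, those of Sfrp4 with Dkk2 (0.0944), Sfrp1 with Ctnnb1 (-0.0396) and Dkk2 with Ctnnb1 (0.110) changed sign by Pearson, and those of Sfrp4 with Tcf7l2 (0.0667) and Dkk2 with Tcf7l2 (-0.160) in cells 6 to 14. Dkk2 is near its lowest values throughout those cells, so its correlations there order values of 0.03 or less. By Pearson 2 of the 5 nearest genes were kept for Sfrp4 and for Tcf7l2, and 3 for Sfrp1 and for Ctnnb1. Of 128 values under other settings, 97 stayed within 1 SD or, for counts, within 1.5 times. These limits are wide, since the SDs of the 5 genes over cells were 1.92 to 2.96. Leaving out a few cells can hardly move a mean or a share that far, so the tally does not measure stability. The Dkk2 mean, 0.85 with all cells and 0.18 without cells 15 to 17, counts as unchanged. So does Tcf7l2, at 3.60 and, multiplied by length, at 4.73, where it passed Ctnnb1. With cells left out, detection was compared as a share of the cells used, and the 97 include 46 of the 47 values computed with cells left out. The causes of these shifts were not tested. Because read depth is unknown, no limit of detection is given. No paired analysis was possible because there is 1 group.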

Other observations

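Values of 2 cells were set side by side after they were seen. Cell 8 held the lowest value of Sfrp1, Ctnnb1 and Tcf7l2 and was among the 7 cells with Dkk2 at the lowest value, while Sfrp4 was at 4.13 there. It also held the lowest Myc, 0.76, and its number of rows at the lowest value, 1259, lay within the range of the other cells, 871 to 1766. Cell 16 held the highest Tcf7l2 and Dkk2 together with the highest Myc, 10.47, the highest Ryk, 7.31, and the highest Prrx1, 7.31. It had 1467 rows at the lowest value. Its summed adipocyte markers, 22.1, were the highest of the 17 cells. It was also the only cell with all 3 measured melanocyte or Schwann cell markers (Mitf, Mbp and S100b), with a summed value of 13.6 against 0.75 to 11.6 in the other cells. The part of these features in the values of cell 16 was not tested.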
